A study of Mus musculus with 139 samples.

Results

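Distal H3K27ac peaks that were listed after 4 h of exosome depletion and not before it are described here. A peak was taken where it shared no base with any peak of the 0 h list and lay more than 2 kb from both ends of every protein-coding locus. Of the 20449 peaks of the 4 h list, 5004 met both conditions, a share of 24.5% (exact Clopper-Pearson 95% interval 23.9% to 25.1%, counting error only). These regions were chosen by whether a peak was called in either list and by its position, so their absence at 0 h and their distance from genes are given as a description, with no test. The other 4 h peaks were 6509 distal peaks that overlapped a 0 h peak (called kept distal peaks here), 7651 kept peaks near a coding gene end, and 1285 peaks near a gene end listed at 4 h only. The 0 h list held 16239 peaks, of which 1268 distal ones overlapped no 4 h peak.

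The line AID-FBEXOSC2 of mouse embryonic stem cells (ESCs) was grown in serum with LIF, and an auxin-inducible degron allows EXOSC2, a subunit of the RNA exosome, to be degraded in it. All groups carried the degron: 0 h samples received no indole-3-acetic acid (IAA, an auxin), and the others received 0.5 mM IAA for the stated time. Beside the lists at 0 and 4 h, RNA of the same line was used as total RNA at 0, 4 and 20 h, as nascent RNA at 0, 1, 2 and 4 h after a 10 min pulse of 5-ethynyluridine (EU), and as RNA of 4 cell fractions at 0 and 4 h. Every group held 2 replicates. No group had IAA without the degron, the labels do not say whether the line is 1 clone, and nothing says that replicates came from separate cultures, so p-values measure only the spread between these samples.

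Acetylation of histone H3 at lysine 27 marks active enhancers and promoters. Away from promoters it is laid down mainly by the acetyltransferases p300 and CBP, which transcription factors bring to enhancers, and enhancers are themselves transcribed into short-lived RNAs that the nuclear exosome degrades. The peak lists hold positions only, without heights, so how far a region stood below the calling threshold at 0 h is not known.

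A stretch of regulatory sequence could be read for the few peaks that contain an annotated transcription start. RefSeq promoter windows (GRCm38.p6, the mm10 build of the files; 250 bases before to 50 bases after a start) lay wholly inside 61 of the 5004 peaks, with 70 windows of 65 gene symbols, and 4943 peaks held none. Below are the 250 bases before the start for 6 of them. The first 3 are all of the windows in these peaks that hold an element of the p53 type, shown in capitals. The last 3 belong to genes whose RNA rose in the chromatin fraction, and there capitals mark GGGCGG or its reverse complement CCGCCC.
Gm51651, chr1:155056274-155056523, plus strand: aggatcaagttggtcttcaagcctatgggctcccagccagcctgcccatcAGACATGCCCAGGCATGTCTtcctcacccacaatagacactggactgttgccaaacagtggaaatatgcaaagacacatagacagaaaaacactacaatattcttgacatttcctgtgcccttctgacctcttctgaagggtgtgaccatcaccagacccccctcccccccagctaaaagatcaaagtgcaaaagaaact
Stox2, chr8:47352349-47352598, minus strand: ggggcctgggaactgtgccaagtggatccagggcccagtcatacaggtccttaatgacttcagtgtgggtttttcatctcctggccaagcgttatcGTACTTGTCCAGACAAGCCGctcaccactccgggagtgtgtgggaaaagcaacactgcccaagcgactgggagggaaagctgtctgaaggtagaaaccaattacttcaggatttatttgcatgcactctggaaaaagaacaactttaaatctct
AU040972, chr11:79484032-79484281, minus strand: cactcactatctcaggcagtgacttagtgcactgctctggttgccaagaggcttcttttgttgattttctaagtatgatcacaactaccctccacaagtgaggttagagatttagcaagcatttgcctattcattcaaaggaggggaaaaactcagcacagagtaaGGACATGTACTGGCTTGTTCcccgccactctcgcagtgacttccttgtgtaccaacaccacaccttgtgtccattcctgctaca
Fbxw7, chr3:84951961-84952210, plus strand: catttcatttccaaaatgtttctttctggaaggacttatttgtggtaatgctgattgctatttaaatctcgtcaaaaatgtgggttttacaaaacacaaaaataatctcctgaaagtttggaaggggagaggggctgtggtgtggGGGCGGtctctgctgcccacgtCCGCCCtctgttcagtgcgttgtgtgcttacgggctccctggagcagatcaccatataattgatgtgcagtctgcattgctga
4930471M09Rik, chr6:91440855-91441104, minus strand: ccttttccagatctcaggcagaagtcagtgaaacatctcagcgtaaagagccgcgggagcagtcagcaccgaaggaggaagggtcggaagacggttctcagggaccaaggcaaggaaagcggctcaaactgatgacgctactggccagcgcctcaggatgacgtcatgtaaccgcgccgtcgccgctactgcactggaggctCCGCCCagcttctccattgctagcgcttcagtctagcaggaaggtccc
Platr14, chr2:104559209-104559458, plus strand: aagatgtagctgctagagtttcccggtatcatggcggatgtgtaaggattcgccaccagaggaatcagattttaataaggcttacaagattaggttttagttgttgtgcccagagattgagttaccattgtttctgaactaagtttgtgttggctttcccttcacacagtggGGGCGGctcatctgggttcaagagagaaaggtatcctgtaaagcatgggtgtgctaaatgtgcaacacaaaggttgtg

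The p53 type element, a pair of adjacent 10-base copies with both cores exact and at most 2 mismatches elsewhere, occurred in 3 of the 70 windows (4.29%) and in 52 of all 32851 windows (0.158%). None of the 423 windows in kept distal peaks held it, and 3 of the 230 windows (1.30%) in gene-proximal peaks listed at 4 h only did. The copy upstream of Gm51651 had 0 mismatches and began 200 bases before the start. It lay in the peak chr1:155055490-155057000, whose nearest coding gene, Ier5, was 39360 bp away. The copies at Stox2 and AU040972 had 2 mismatches each and began 154 and 84 bases before the start. Stox2 and AU040972 were below the minimum level in all 3 RNA tables, and Gm51651 is not a locus of those tables. The RNA of Ier5 was not called changed in total RNA at 4 h (log2 change -0.08, adjusted p = 0.681, limma).

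Other short motifs were searched on both strands of the same windows, and some of their letters can overlap. The AP-1 letters TGANTCA were in 12.9% of the 70 windows, in 7.81% of all windows and in 5.67% of the windows in kept distal peaks. GGGCGG was in 32.9% of the 70 windows, in 35.7% of all and in 42.8% of those in kept distal peaks. The E-box CACGTG was in 1.43%, in 7.15% of all windows and in 9.46% of those in kept distal peaks. In the same order CCGGAAG was in 12.9%, 8.86% and 13%, GGAATG in 20%, 14.7% and 16.8%, TATAAA in 10%, 13.6% and 8.98%, and the octamer ATTTGCAT in 1.43%, 1.74% and 3.55%. These are matches of letters, and 70 windows of 61 peaks say nothing of the 4943 peaks whose sequence was not read. The median GC content of the 70 windows was 53%, against 55% for windows in kept distal peaks and 61.7% for those in kept gene-proximal peaks. Their median number of CpG dinucleotides was 5.5 per window, against 11 and 23.

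The peaks were narrower than kept distal peaks and lay more often than these inside coding genes. Their median width was 1056 bp (interquartile range 763 to 1359 bp, range 347 to 3331 bp), and together they covered 5.48 Mb. Kept distal peaks had a median width of 1332 bp, and distal peaks lost from the 0 h list 774.5 bp. The share of distal 4 h peaks that were absent at 0 h fell with width, from 57.5% (574 of 998) under 600 bp to 9.43% (132 of 1400) at 2000 bp and above. Between those ends the share was 52.2% (1258 of 2409) from 600 bp to under 900 bp, 51.6% (1302 of 2522) to under 1200 bp, 50.5% (1018 of 2016) to under 1500 bp and 33.2% (720 of 2168) to under 2000 bp. A wider peak has more bases that can meet a 0 h peak, so the rule itself bears on this order. Of the 11513 distal 4 h peaks 43.5% were absent at 0 h, against 14.4% of the 8936 gene-proximal ones. Both shares come from the lists that define the peaks and were not tested.

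**Figure D1:**
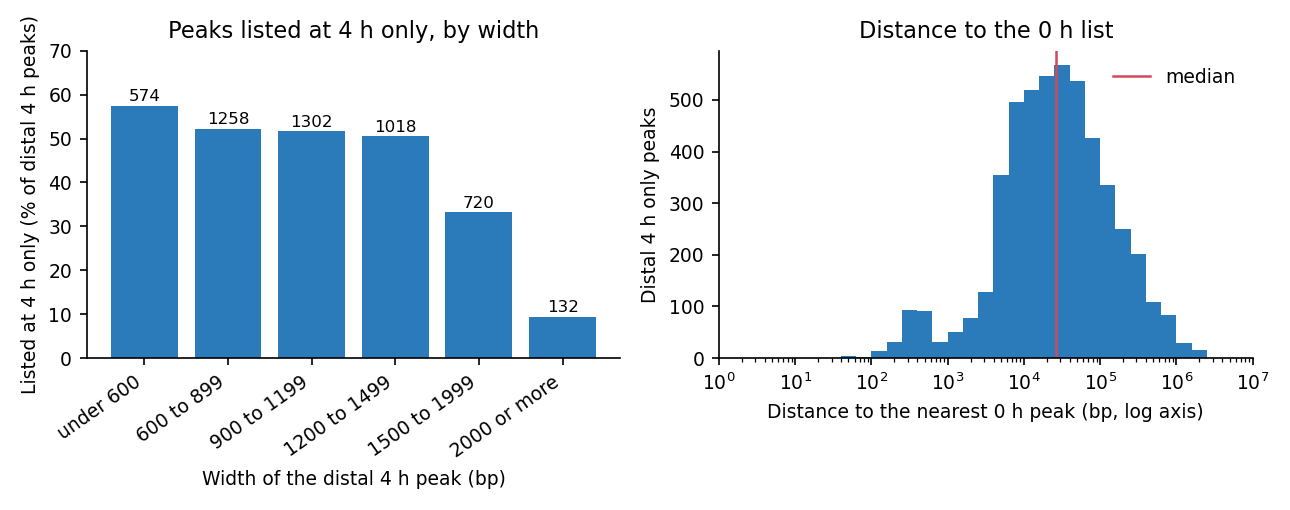
Left, percent of distal 4 h peaks that were absent at 0 h, by bins of peak width in bp, with the number of absent peaks above each bar. Right, distance in bp (log axis) from a distal 4 h peak absent at 0 h to the nearest 0 h peak. The share falls from 57.5% under 600 bp to 9.43% at 2000 bp and above, and the distance has a median of 26263 bp, marked by a line.

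Of the 5004 peaks, 2662 (53.2%) lay inside the body of a coding gene, against 40.5% of kept distal peaks and 48.3% of lost distal peaks. Noncoding loci were overlapped by 454 (9.07%), against 14% of kept distal peaks. No locus of the tables was touched by 2034 (40.6%), against 48.9% of kept distal peaks. The tables give whole loci, so exons, introns and untranslated regions inside a body were not told apart. The median distance to the nearest coding gene end was 21062 bp (interquartile range 8727 to 56879 bp), and 755 peaks (15.1%) were over 100 kb from one. Chromosome X carried 85 peaks (1.70%), against 2.55% of kept distal peaks, chromosome Y carried 4, and 5 lay on unplaced scaffolds.

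Distances from the peaks to acetylation listed at 0 h spanned a wide range, and they were compared with no other set of positions. The median distance to the nearest 0 h peak was 26263 bp (interquartile range 8998.5 to 78932 bp), with 3976 peaks (79.5%) within 100 kb and 1027 peaks over 100 kb away. Within 1 kb of a 0 h peak there were 274 (5.48%), within 5 kb 680 and within 10 kb 1382 (27.6%). One peak lay on a scaffold with no 0 h peak. The peaks closest to one were chr15:35943751-35944778 near Cox6c at 5 bp, and those inside Slc6a6 at 9 bp, Adam19 at 15 bp and Vps13d at 44 bp. Just outside that limit, the distal peaks with the smallest covered share of their width overlapped a 0 h peak by 36, 201, 279 and 241 bp. At the other limit, peaks at 2002 bp (Hsd17b14), 2005 bp (Tshz2), 2007 bp (Ccdc6) and 2007 bp (Ajuba) from a gene end were included, and those at 1999, 1991, 1984 and 1975 bp were not.

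The widest were chr4:147636662-147639993 (3331 bp) in Zfp979, a zinc finger gene, 265 bp from a 0 h peak, and an intergenic peak of 2830 bp on chromosome 18. Next came chr2:30815834-30818592 (2758 bp) in Ntmt1, chr10:39632336-39635043 (2707 bp) in Traf3ip2, chr6:134959923-134962592 (2669 bp) near Apold1 and chr11:69025797-69028444 (2647 bp) in Ctc1. Peaks were mostly single: when those up to 10 kb apart were joined they formed 4743 groups, of which 4507 held 1 peak, 217 held 2 and 19 held 3 or more. The largest groups held 4 peaks and lay in Nxn, Nlk and Itpr3 and outside Mta3. A 4 h peak of another class lay within 10 kb of 1238 peaks (24.7%).

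Each peak was linked to the coding locus it lay in or, failing that, to the nearest within 100 kb, a link of position that does not show regulation. In this way 4422 peaks were linked to 3393 genes (15.6% of the 21807 coding genes of the table) and 582 were not linked. Of the 10360 coding genes tested in total RNA, 2367 (22.8%) were linked. Of the linked genes 2648 had 1 peak, 530 had 2, 215 had 3 or more and 20 had 5 or more, and 1304 (38.4%) were also linked to a kept distal peak. The genes with the most peaks were Fgfr2 with 13, Rbfox2 and Zfp423 with 8 each, Msi2 and Zfp64 with 7 each, and Dab2ip, Jarid2 and Nxn with 6 each. Fgfr2, a fibroblast growth factor receptor gene, is listed in the table over chr7:130162451-133123350, so its number of peaks rests on that span. Of these 8 genes only Jarid2, a subunit of Polycomb repressive complex 2, was called changed in total RNA at 4 h. Jarid2 stood at 60.1 and 56.8 FPKM at 0 h, at 38.0 and 44.4 FPKM at 4 h and at 16.1 and 17.1 FPKM at 20 h. No library of either later time reached the 0 h libraries, and the log2 change at 4 h was -0.50 (adjusted p = 0.0372, limma), a call lost with rescaled libraries (-0.12, adjusted p = 0.307).

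The RNA libraries set the limits of what follows. Summed values ranged from 323866 to 492306 FPKM in the 6 total RNA libraries, 109466 to 141409 RPKM in the 8 nascent libraries and 531678 to 952853 FPKM in the 16 fraction libraries, with 6576 to 12123 genes at 1 or more. Read depth is unknown for the FPKM tables, and steps between small nascent values correspond to 2672380 to 5642030 counted reads per library. In the first 4 h replicate of total RNA the transcript AY036118 took 15.2% of the summed value. ESC markers were present, with Pou5f1 at 456 and 430 FPKM and Sox2 at 154 and 129 FPKM at 0 h, and none of the 9 2-cell-like markers in the table reached the minimum level. The mRNA of Exosc2, whose protein is the target, stood at 3.75 and 2.74 FPKM at 0 h and 2.64 and 2.17 FPKM at 4 h (log2 change -0.31, adjusted p = 0.165, limma), and protein was not analysed here. In bulk RNA, fewer cells expressing a gene and less RNA per cell cannot be told apart.

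In total RNA at 4 h, genes linked to the peaks were called at shares near those of all coding genes. Of 2367 linked genes tested, 40 were called higher (1.69%, against 2.17% of all coding genes) and 645 lower (27.2%, against 23.9%), by limma on log2(FPKM + 1) with an adjusted p under 0.05. Genes linked to kept distal peaks gave 2.03% higher and 29.1% lower. The median log2 change was -0.34 for linked genes and -0.33 for all coding genes, so the table as a whole was shifted. When each library was rescaled to its median gene the medians became -0.02 and -0.01, and the linked genes called were 104 higher (4.39%, against 4.36%) and 61 lower (2.58%, against 2.22%). Genes with 3 or more peaks gave 3 higher and 54 lower of 185 tested. The counts also depended on single libraries: without the first 0 h replicate they were 8 higher and 3 lower, without the second 0 h replicate 7 and 11, without the first 4 h replicate 19 and 43, and without the second 4 h replicate 34 and 1114. With the replicate number as a block they were 26 and 168.

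At 20 h, a comparison that uses the same 0 h libraries, 193 linked genes were higher (8.15%, against 7.61% of all coding genes) and 1715 lower (72.5%, against 72.9%). The median log2 change was -0.76 for linked genes and -0.79 for all coding genes. Rescaling gave 749 higher (31.6%, against 27.2%) and 676 lower (28.6%, against 29.6%). Without the first 20 h replicate 123 were called higher.

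In nascent RNA, which reports transcription within the labelling period, no linked gene of 1476 tested passed at 1 or 2 h, where 0% of all coding genes did. At an unadjusted p under 0.05 there were 42 at 1 h and 93 at 2 h, against 263 and 445 of the 6147 coding genes tested. At 4 h, 31 linked genes were higher (2.10%, against 1.68% of all coding genes) and 7 lower (0.474%, against 0.309%), with median log2 changes of -0.05 and -0.04. The 3 times share their 0 h libraries. Of the genes with a peak inside the body, 27 of 1006 (2.68%) were higher and 6 lower, of those with a peak within 20 kb 2 of 275 were higher, and of those at 20 to 100 kb 2 of 195 were higher and 1 lower. The nascent calls rested on having all libraries: leaving out any 1 of the 4 left 1 gene higher, Mdm2, and 0 lower, and so did the replicate block.

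In the insoluble chromatin fraction (chrRNP) more linked genes were called higher than lower, a balance that flipped when libraries were rescaled. Of 2437 linked genes, 174 were higher (7.14%, against 6.38% of all coding genes) and 18 lower (0.739%, against 0.58%), with medians of 0.16 and 0.19. In the nucleoplasm (np) 66 were higher (2.71%, against 3.26%) and 819 lower (33.6%, against 29%). After rescaling, np gave 111 higher (4.55%, against 5.13%) and 262 lower (10.8%, against 10.1%), and chrRNP gave 151 higher (6.20%, against 6.64%) and 277 lower (11.4%, against 9.25%). Without the first and the second 0 h chrRNP library the counts were 84 higher and 35 lower, and 955 higher and 22 lower. Without the first and the second 4 h library they were 138 and 7, and 64 and 7.

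**Figure D2:**
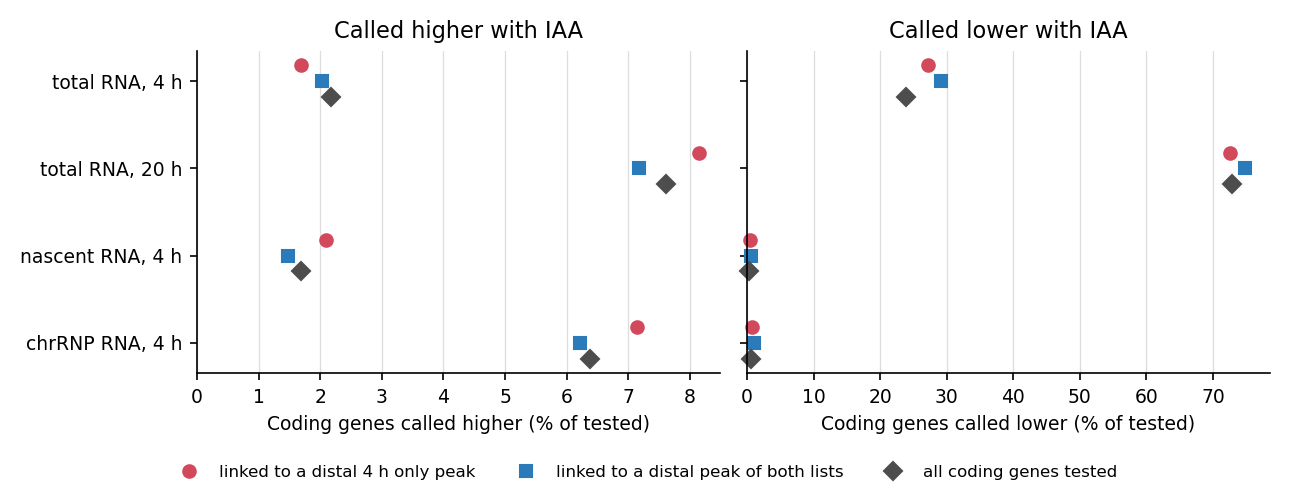
Percent of tested genes called higher or lower (limma, adjusted p under 0.05) in each RNA comparison, for genes linked to distal peaks of 4 h only, genes linked to kept distal peaks and all coding genes. In total RNA at 4 h the 3 groups have 27.2%, 29.1% and 23.9% lower, and the linked genes lie near the background in every comparison shown.

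The largest rises in total RNA at 4 h among linked genes of at least 5 FPKM were in Mdm2 and Ddit4, targets of the tumour suppressor p53. Largest rises and falls of linked genes were taken only where the libraries of the times compared did not overlap. Such a separation was therefore a condition of being named, here and below. Of the 22 genes listed as p53 feedback, arrest and repair targets, 5 (22.7%) were linked: Mdm2, Ddit4, Gdf15, Tigar and Sesn1. Among all coding genes tested in total RNA 22.8% were linked. Of these 5 targets 3 were higher and 1 lower in total RNA at 4 h, with a median log2 change of 1.42. The 16 unlinked targets tested gave 11 higher and 0 lower with a median of 1.00, and of all coding genes tested 2.17% were higher and 23.9% lower, with a median of -0.33. Of the 10 listed p53 cell death targets only Pmaip1 was linked.

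Mdm2 encodes the ubiquitin ligase that marks p53 for degradation. It had 1 peak inside its body, chr10:117697652-117698333, and another 6290 bp outside, chr10:117717048-117718912, which were 11174 and 4674 bp from the nearest 0 h peak. Total RNA of Mdm2 stood at 21.2 and 17.8 FPKM at 0 h, at 76.7 and 90.8 FPKM at 4 h and at 121 and 114 FPKM at 20 h. Every treated library lay above both untreated ones, with log2 changes of 2.05 (SE 0.145, adjusted p = 0.0018) at 4 h and 2.53 (adjusted p = 7.71e-05) at 20 h by limma. Nascent Mdm2 was 6.06 and 5.34 RPKM at 0 h, 6.23 and 6.16 RPKM at 1 h, 19.4 and 20.1 RPKM at 2 h, and 63.3 and 74.0 RPKM at 4 h. The nascent groups did not overlap at any time. The log2 change was 0.11 at 1 h (adjusted p = 0.955), 1.63 at 2 h (adjusted p = 0.0538) and 3.38 at 4 h (SE 0.127, adjusted p = 0.0048). In chrRNP it went from 5.30 and 8.08 to 54.5 and 65.2 FPKM, a log2 change of 3.00 (SE 0.173, adjusted p = 3.08e-06).

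Ddit4, a stress-induced inhibitor of the mTORC1 kinase, had a narrow peak at chr10:59956566-59956934, 4732 bp from the gene, and a second at chr10:59964657-59965450. Its total RNA was 6.37 and 6.41 FPKM at 0 h, 17.4 and 23.5 FPKM at 4 h, and 36 and 36.8 FPKM at 20 h. The groups did not overlap, and the log2 change was 1.52 at 4 h (SE 0.154, adjusted p = 0.00633) and 2.34 at 20 h. Its chrRNP level went from 1.32 and 2.09 to 9.04 and 12.8 FPKM, a log2 change of 2.14 (adjusted p = 0.000133), and its nascent change of 2.24 did not pass (adjusted p = 0.103). Gdf15, a secreted stress-response factor of the TGF-beta family with a peak at chr8:70637374-70638909, went from 0.158 and 0.0616 to 1.40 and 2.66 FPKM (log2 change 1.42, adjusted p = 0.0198).

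The remaining linked p53 targets were not called higher in total RNA at 4 h with the values as deposited. Tigar, which encodes a fructose bisphosphatase, had a peak in its body at chr6:127094177-127095216. Its total RNA was 15.7 and 13.1 FPKM at 0 h and 8.25 and 8.58 FPKM at 4 h, a log2 change of -0.71 (adjusted p = 0.0205) that was -0.35 (adjusted p = 0.109) with rescaled libraries. Sesn1, a sestrin gene with a peak at chr10:41886633-41887930, stood at 4.25 and 4.03 FPKM at 0 h, 2.86 and 3.50 FPKM at 4 h and 0.782 and 1.11 FPKM at 20 h. Its log2 change was -0.30 (adjusted p = 0.143) at 4 h and -1.41 (adjusted p = 0.000246) at 20 h. Pmaip1, which encodes the BH3-only protein Noxa, had a log2 change of 0.28 in total RNA (adjusted p = 0.187), or 0.63 (adjusted p = 0.0152) with rescaled libraries, and of 0.98 in chrRNP (adjusted p = 0.0207). At 20 h Pmaip1 was called higher in total RNA (0.75), and its nascent change of 1.57 at 4 h was not called.

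Among linked genes of at least 5 FPKM, the next largest rises in total RNA at 4 h were Lpin1, Frs3, D630023F18Rik and Zfp365. Lpin1, a phosphatidate phosphatase gene of lipid synthesis, had peaks at chr12:16587118-16589697 and chr12:16591752-16592259, 109370 and 114004 bp from any 0 h peak. Its total RNA was 1.55 and 1.53 FPKM at 0 h, 5.59 and 5.43 FPKM at 4 h, and 6.31 and 6.44 FPKM at 20 h. The treated libraries all lay above the untreated ones, and the log2 change at 4 h was 1.36 (SE 0.106, adjusted p = 0.00271), with 1.30 in nascent RNA (adjusted p = 0.0372) and 1.67 in chrRNP (adjusted p = 8.19e-07). Zfp365, with a peak at chr10:67862490-67862942, went from 2.97 and 2.83 to 6.54 and 8.54 FPKM at 4 h and to 14.9 and 15.5 FPKM at 20 h (log2 change at 4 h 1.12, adjusted p = 0.0109). The log2 change at 4 h was 1.49 for Frs3 (adjusted p = 0.0152), an adaptor of FGF receptors, and 1.37 for D630023F18Rik (adjusted p = 0.00755).

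**Figure D3:**
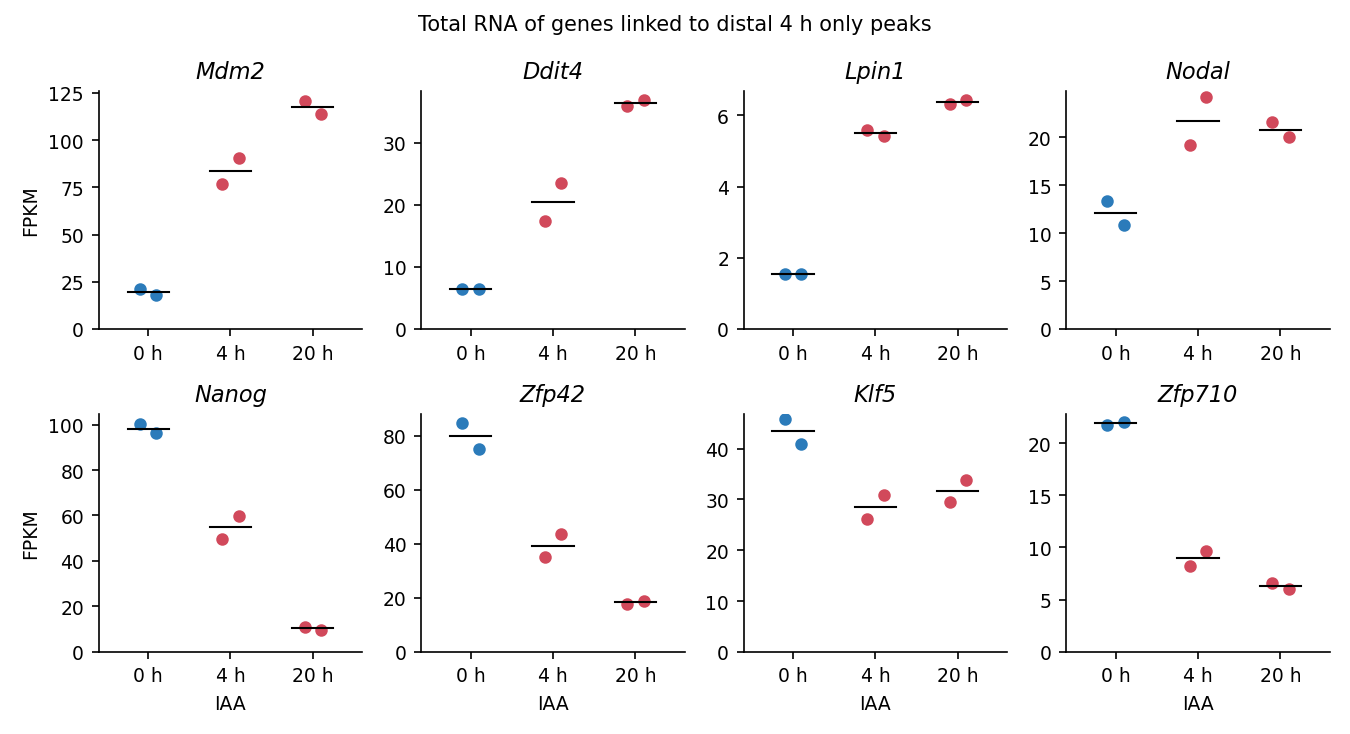
Total RNA in FPKM (linear axes from 0) at 0, 4 and 20 h of IAA for 8 genes linked to distal peaks of 4 h only. Dots are the 2 libraries of each time and bars their mean. The treated libraries of Mdm2, Ddit4, Lpin1 and Nodal all lie above those at 0 h, and those of Nanog, Zfp42, Klf5 and Zfp710 all lie below.

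In nascent RNA at 4 h, the largest rises after Mdm2 among linked genes of at least 5 RPKM were in Mybl1, Ctc1, Rbm17, Rev1 and Rab23, and Ptpn14 rose at a lower level. Ptpn14, a tyrosine phosphatase gene that restrains the coactivator YAP, carried 4 peaks in its body, among them chr1:189754163-189756034. Its nascent RNA was 0.489 and 0.372 RPKM at 0 h, 1.07 and 0.890 RPKM at 2 h, and 3.63 and 4.08 RPKM at 4 h. The libraries at 2 and 4 h lay above those at 0 h, with a log2 change of 1.76 at 4 h (adjusted p = 0.0216), and total RNA rose by 1.00 (adjusted p = 0.0169) from 3.14 and 3.56 to 6.66 and 8.91 FPKM.

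Ctc1, which encodes a subunit of the telomere-capping CST complex, holds one of the widest peaks in its body. Its nascent RNA went from 1.25 and 0.854 RPKM at 0 h to 2.44 and 2.43 RPKM at 2 h and 6.16 and 4.95 RPKM at 4 h. These groups did not overlap, which the choice of the gene required for 0 and 4 h. The log2 change at 4 h was 1.68 (adjusted p = 0.0237), beside 0.08 in total RNA (adjusted p = 0.559). Rbm17, a splicing factor gene with peaks at chr2:11593038-11593721 and chr2:11594105-11594864, was 4.21 and 3.48 RPKM at 0 h, 3.78 and 4.62 RPKM at 2 h and 13.4 and 14.9 RPKM at 4 h. Its libraries overlapped between 0 and 2 h and, as the choice of the gene required, not between 0 and 4 h. The log2 change at 4 h was 1.65 (adjusted p = 0.0239), beside 0.03 in total RNA (adjusted p = 0.874). The difference between nascent and total RNA, which come from separate tables, was not tested.

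Mybl1, a MYB family transcription factor gene, had a peak at chr1:9702402-9702941, 2193 bp from its end and 599 bp from a 0 h peak. Its nascent RNA rose from 1.26 and 1.63 to 6.55 and 7.12 RPKM at 4 h (log2 change 1.68, adjusted p = 0.0219). Rev1, a translesion DNA polymerase gene with a peak at chr1:38073813-38075093, rose from 6.62 and 5.64 to 17.7 and 17.5 RPKM (1.38, adjusted p = 0.0219). Rab23, a small GTPase gene with a peak at chr1:33725201-33726436, rose from 2.58 and 2.37 to 7.36 and 7.83 RPKM (1.31, adjusted p = 0.0219). Libraries at 0 and 4 h did not overlap in any of the 3 genes, which was a condition of naming them. Mybl1, Ctc1, Rbm17, Rev1 and Rab23 each lost the call without any 1 of the 4 libraries and with the replicate block. Zfp710, a zinc finger gene with peaks at chr7:80013506-80014035 and chr7:80056501-80057582, was lower in nascent RNA, at 2.29 and 2.73 RPKM at 0 h and 1.16 and 1.09 RPKM at 4 h (log2 change -0.72, adjusted p = 0.0457). That call was likewise lost without any 1 of the 4 libraries and with the replicate block.

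**Figure D4:**
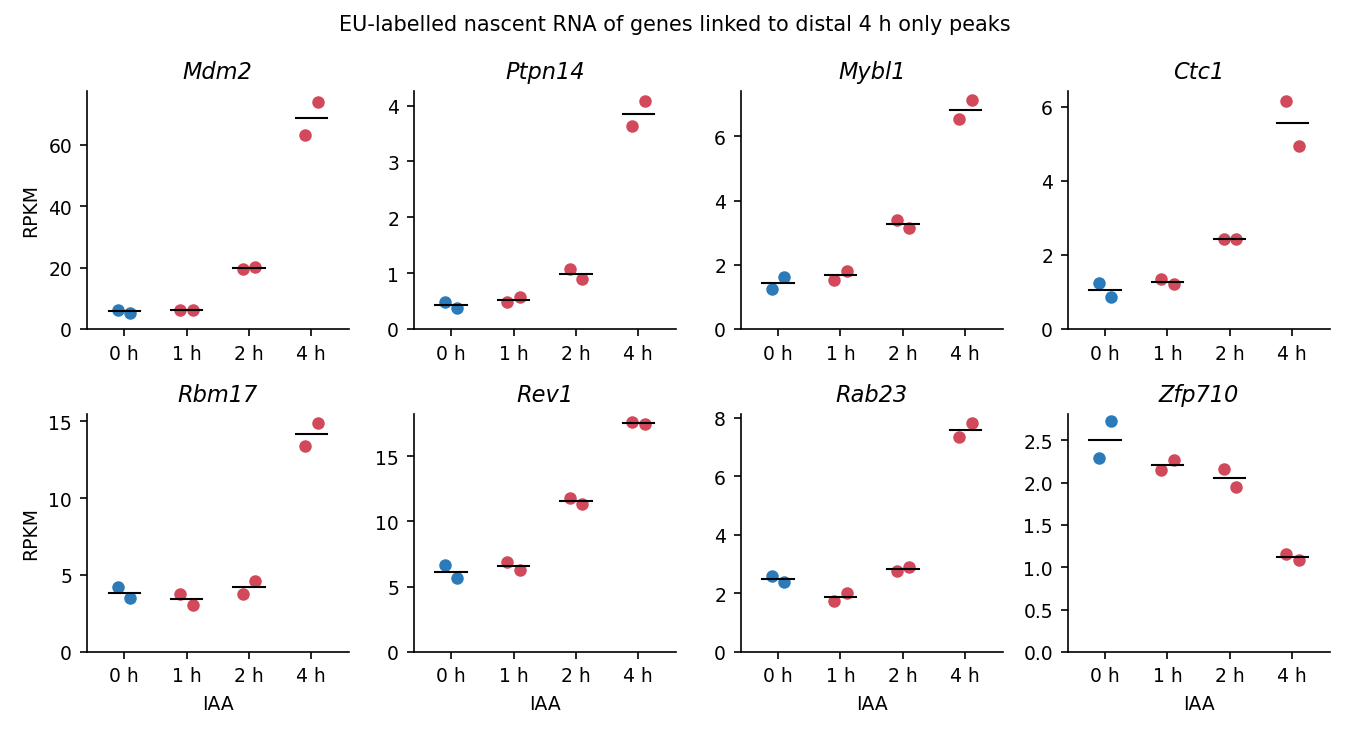
Nascent RNA in RPKM (linear axes from 0) at 0, 1, 2 and 4 h of IAA for 8 genes linked to distal peaks of 4 h only. Dots are the 2 libraries of each time and bars their mean. For the 7 genes that rose, both 4 h libraries lie above all others, with Mdm2 at 63.3 and 74.0 RPKM, and Zfp710 is lowest at 4 h.

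Among linked genes of at least 5 FPKM, Zfp710 also had the largest fall in total RNA at 4 h, from 21.8 and 22.0 to 8.24 and 9.71 FPKM (log2 change -1.20, adjusted p = 0.0064). Slc20a2, a phosphate transporter gene with a peak at chr8:22548644-22549595, fell from 14.6 and 16.3 to 5.55 and 7.88 FPKM (-1.11, adjusted p = 0.0153) and was also lower in chrRNP (-0.75, adjusted p = 0.0150). Map3k1, a kinase gene upstream of JNK, had a log2 change of -1.11 (adjusted p = 0.00603), Bhlhe40, a bHLH repressor gene, of -1.09 (adjusted p = 0.0117) and Fam169a of -1.07 (adjusted p = 0.0133). Cited2, which encodes a partner of CBP and p300, had -1.07 (adjusted p = 0.0220), or -0.72 (adjusted p = 0.0758) with rescaled libraries. Other falls in chrRNP were smaller, among them Trps1 (-0.52, adjusted p = 0.00681), Il17rd (-0.52, adjusted p = 0.0107) and Grhl2 (-0.46, adjusted p = 0.0377).

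Factors of naive pluripotency, the state that LIF maintains, were linked to the peaks and fell in total RNA, as did unlinked ones. Of the 22 listed, 10 were linked (Nanog, Klf5, Esrrb, Tfcp2l1, Tbx3, Zfp42, Pou5f1, Lifr, Stat3 and Jam2). That share of 45.5% stands beside 22.8% of all coding genes tested in total RNA, and the difference was not tested. At 4 h 6 of the 10 were lower and 0 higher, with a median log2 change of -0.50, where 23.9% of all coding genes were lower with a median of -0.33. Of the 12 unlinked factors 7 were lower, with a median of -0.53. At 20 h all 10 linked and all 12 unlinked ones were lower, as were 72.9% of all coding genes. At 4 h the median change of the 10 was -0.37 in nascent RNA and 0.04 in chrRNP.

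Nanog, a homeodomain factor gene, had a peak at chr6:122690264-122691593, 15895 bp from the gene. Its total RNA stood at 100 and 96.3 FPKM at 0 h, at 49.8 and 59.7 FPKM at 4 h and at 11.1 and 9.63 FPKM at 20 h. The 3 times did not overlap, and the log2 changes were -0.84 (adjusted p = 0.0184) at 4 h and -3.13 at 20 h. Zfp42, which encodes the naive marker REX1, had a peak at chr8:43354189-43355437 and went from 84.8 and 75.2 to 35 and 43.6 FPKM at 4 h (-1.01, adjusted p = 0.0142). Klf5, a Krueppel-like factor gene with peaks at chr14:99309669-99310706 and chr14:99390935-99392243, went from 45.9 and 41.0 to 26.2 and 30.9 FPKM (-0.59, adjusted p = 0.0340), or -0.22 (adjusted p = 0.216) with rescaled libraries. Lifr, the LIF receptor gene, had -0.78 (adjusted p = 0.0133). With rescaled libraries Nanog (-0.46), Zfp42 (-0.64) and Lifr (-0.42) stayed lower and within the threshold.

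Among the listed signalling genes near the peaks, Nodal was called higher in total RNA at 4 h, and the others that were called were lower. Nodal, a TGF-beta family ligand gene, had peaks at chr10:61408845-61410991 and chr10:61414841-61415887, the second 312 bp from a 0 h peak. Its total RNA was 13.4 and 10.8 FPKM at 0 h, 19.2 and 24.1 FPKM at 4 h, and 21.6 and 20.0 FPKM at 20 h. The treated libraries lay above the untreated ones, with a log2 change of 0.79 at 4 h (adjusted p = 0.0253) and 1.31 in chrRNP (adjusted p = 0.000361). Of the 5 linked genes of the Nodal and BMP list, Nodal was higher and 3 were lower, against 2.17% and 23.9% of all coding genes: Id1 (-0.85, adjusted p = 0.0146), an inhibitor of bHLH factors, Smad7 (-0.52, adjusted p = 0.0433), an inhibitory SMAD, and Id4 (-0.59, adjusted p = 0.0410). With rescaled libraries Smad7 (-0.16) and Id4 (-0.38) lost the call. The 9 unlinked genes of that list tested gave 0 higher and 7 lower at 4 h. Their median log2 change was -0.82, against -0.59 for the 5 linked ones. Of 6 linked immediate-early factor genes 5 were tested, 0 were higher and 2 were lower, Klf10 (-1.03, adjusted p = 0.0103) and Myc (-0.69, adjusted p = 0.0283, or -0.34 and 0.105 when rescaled). The 11 unlinked immediate-early genes tested gave 1 higher and 4 lower. Myc had peaks at chr15:62032381-62033015 and chr15:62045416-62046185.

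Of the 5 linked YAP target genes tested, Ctgf (-0.87, adjusted p = 0.014), a matricellular protein gene, and Amotl2 (-0.49, adjusted p = 0.0295) were lower at 4 h, against 23.9% of all coding genes. At 20 h 3 of the 5 were higher, against 7.61% of all coding genes, or 27.2% with rescaled libraries. Ajuba, a LIM protein gene of the Hippo pathway, was higher in nascent RNA at 4 h (0.79, adjusted p = 0.0390). Of 21 listed genes for enhancer and acetylation machinery 10 (47.6%) were linked, against 22.8% of all coding genes tested in total RNA, a difference not tested. Of these 10, 2 were lower at 4 h, near the 23.9% of all coding genes: Kdm6a (-0.47, adjusted p = 0.0425), an H3K27 demethylase gene, and the Mediator gene Med13 (-0.49, adjusted p = 0.0370). Both lost the call when rescaled. The acetyltransferase gene Ep300 had -0.42 (adjusted p = 0.0512). All 10 were lower at 20 h, when 72.9% of all coding genes were.

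The other lists had 0 to 4 linked genes each. Beside their counts stand 23.9% of all coding genes lower at 4 h and 7.61% higher at 20 h. Both linked genes for exosome subunits and cofactors, Papd7 (-0.54, adjusted p = 0.0335) and Mpp6 (-0.46, adjusted p = 0.0481), were lower at 4 h, calls lost on rescaling. Of 3 linked formative genes Otx2 (-0.88, adjusted p = 0.0206) and the DNA methyltransferase gene Dnmt3a (-0.50, adjusted p = 0.0438) were lower, also lost on rescaling. Of 3 heat shock and integrated stress genes Hsph1 was lower (-0.56, adjusted p = 0.0343), not when rescaled. Among markers of other cell types, 4 of 16 trophoblast and simple epithelial genes were linked, of which Elf3 was lower at 4 h (-0.45, adjusted p = 0.0387, lost on rescaling). At 20 h 2 of the 4 were higher, Hand1 (2.19, adjusted p = 0.000131) and Cldn4 (1.41, adjusted p = 0.000308). Of the 6 unlinked ones tested, 1 was lower at 4 h and 4 were higher at 20 h. The median log2 change at 20 h was 1.46 for these 6 and 0.64 for the 4 linked ones. The 2 linked neural genes, Olig2 (-0.67) and Map2 (-0.61), were lower at 4 h and not when rescaled. Of the 2 unlinked neural genes tested, 1 was higher at 4 h (against 2.17% of all coding genes) and 0 lower. Both of these unlinked genes were higher at 20 h. Of 2 linked endoderm markers 1 was tested and did not pass at 4 h, none of 3 mesoderm and fibroblast markers reached the minimum level, and 0 of 9 2-cell-like markers were linked.

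Genes with a start inside a peak could be followed beside the sequence before that start. The RNA values are of the whole gene, so RNA from that start was not told apart from RNA of other starts. In total RNA at 4 h 1 of 20 tested was higher and 2 were lower, and in chrRNP 5 of 22 were higher and 0 lower. In nascent RNA at 4 h 0 of 10 tested were higher and 0 lower, where 1.68% of all coding and 1.32% of all noncoding genes were higher. In total RNA 2.17% of all coding genes were higher and 23.9% lower, and in chrRNP 6.38% of all coding and 13.3% of all noncoding genes were higher. Fbxw7, which encodes a substrate receptor of the SCF ubiquitin ligase, had 3 peaks, and the one holding the printed start, chr3:84951854-84953168, was 136269 bp from a 0 h peak. Its chrRNP level was 4.04 and 5.33 FPKM at 0 h and 9.37 and 12.1 FPKM at 4 h. The groups did not overlap (log2 change 1.05, adjusted p = 0.000884), and in total RNA Fbxw7 went from 10.4 and 10.4 to 13.1 and 15.9 FPKM (0.44, adjusted p = 0.0470). In nascent RNA at 4 h the log2 change of Fbxw7 was 0.10 (adjusted p = 0.639, limma). The printed start lies inside the locus, in a peak 26030 bp from the nearest coding gene end. The noncoding RNA Platr14, with its start in the peak chr2:104559053-104560148, went from 13.8 and 16.9 to 22.1 and 28.7 FPKM in chrRNP (0.69, adjusted p = 0.0179, lost on rescaling at 0.38). The log2 change of Platr14 was 0.31 in total RNA (adjusted p = 0.271, limma) and -0.43 in nascent RNA (adjusted p = 0.162). The lincRNA 4930471M09Rik, in chr6:91440329-91441460, went from 0.129 and 0.176 to 0.922 and 1.33 FPKM (0.88, adjusted p = 0.00822). The other 2 were C77080 (0.70) and Cald1 (0.65).

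Noncoding loci that hold a peak were called higher at larger shares than linked coding genes in total RNA, chrRNP, np and nascent RNA at 4 h, and noncoding genes in general were so against all coding genes in the first 3 of these. The peaks overlapped 461 such loci, of which 203 were lincRNAs, 116 antisense RNAs and 47 processed transcripts. In total RNA at 4 h 16 of 66 tested were higher (24.2%, against 15.8% of all noncoding genes) and 0 lower (against 7.52%), and of loci that hold a kept distal peak 32.9% of 210 were higher. In chrRNP 20 of 97 were higher (20.6%, against 13.3%, and 28.6% with a kept distal peak) and 1 lower (against 1.84%). In np 40 were higher (41.2%, against 21.6%, and 44.7% with a kept distal peak) and 3 lower (against 4.4%). In nascent RNA at 4 h 2 of 62 were higher (3.23%, against 1.32%, and 3.93% with a kept distal peak), D230017M19Rik and Pvt1, and 0 lower (against 0.403%). Leaving out single total RNA libraries gave 5, 4, 9 and 12 higher (without the first and second 0 h and the first and second 4 h library), and leaving out single chrRNP libraries gave 12, 28, 17 and 10. It was not analysed here whether counting used strand, so reads of a locus that overlaps another gene cannot be told apart from that gene's.

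**Figure D5:**
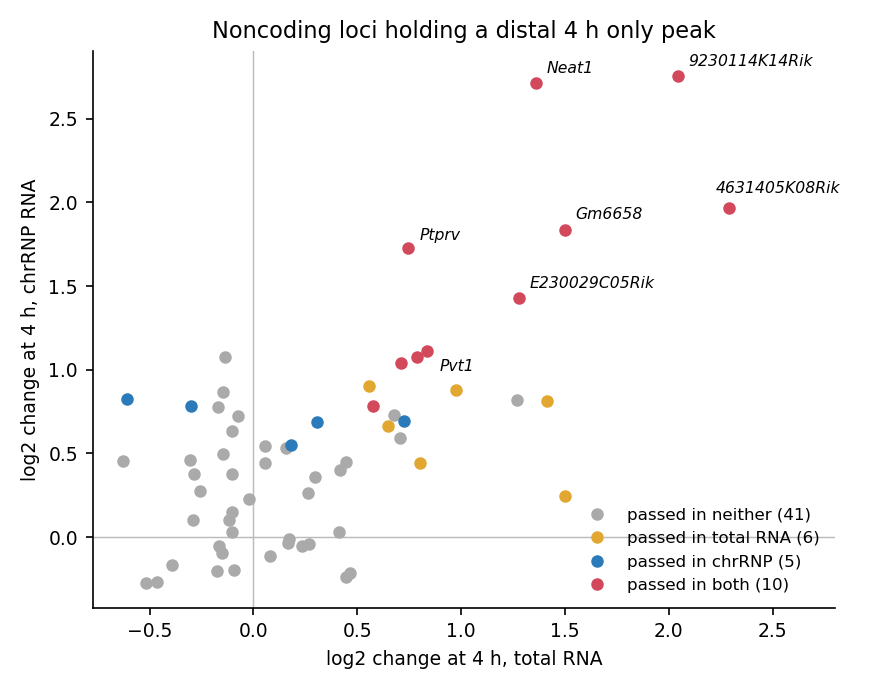
Log2 change at 4 h in total RNA (x axis) against that in chrRNP (y axis) for the 62 noncoding loci holding a distal peak of 4 h only and tested in both tables. Of these loci 10 were called higher in both, 6 in total RNA only, 5 in chrRNP only and 41 in neither, and Neat1 lies at 1.36 and 2.71.

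Neat1, the lincRNA that scaffolds nuclear paraspeckles, held peaks at chr19:5823434-5824841 and chr19:5837504-5838636, which were 15591 and 5650 bp from a 0 h peak. Its total RNA stood at 50.2 and 42.5 FPKM at 0 h, at 116 and 125 FPKM at 4 h and at 247 and 271 FPKM at 20 h. No treated library fell into the untreated range, and the log2 change was 1.36 at 4 h (SE 0.138, adjusted p = 0.00633) and 2.46 at 20 h. In chrRNP it went from 68.0 and 72.1 to 467 and 460 FPKM, a log2 change of 2.71 (adjusted p = 1.14e-05). Its np level went from 60.0 and 47.9 to 89.9 and 79.8 FPKM, a log2 change of 0.65 (adjusted p = 0.0253). Nascent Neat1 was 13.6 and 13.9 RPKM at 0 h and 11.2 and 11.1 RPKM at 4 h, lower in both 4 h libraries without passing the test (-0.28, adjusted p = 0.229).

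The lincRNA 4631405K08Rik, with a peak at chr1:193507568-193509001, gave the largest rise in total RNA at 4 h among the loci holding a peak. It went from 0.224 and 0.468 to 4.47 and 6.83 FPKM (log2 change 2.29, SE 0.215, adjusted p = 0.00573), beside 1.97 in chrRNP. The locus 9230114K14Rik, with a peak at chr5:52231663-52233022, went from 3.23 and 0.293 to 9.33 and 7.97 FPKM (2.04, adjusted p = 0.0351), with 2.24 on rescaling (adjusted p = 0.0550). Its untreated libraries differed from each other by more than those of the other loci named here. Gm6658 went from 0.520 and 0.517 to 3.86 and 2.8 FPKM (1.5, adjusted p = 0.00689). Gm11657 and CT009718.3 were listed at 0 in both 0 h libraries and at 1.78 and 1.87 FPKM and at 1.34 and 2.02 FPKM at 4 h.

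Pvt1, the long noncoding gene next to Myc, held the second of the peaks linked to Myc, chr15:62045416-62046185. Its total RNA went from 4.80 and 4.28 to 8 and 9.81 FPKM (log2 change 0.83, adjusted p = 0.0189), its nascent RNA from 2.51 and 2.65 to 6.33 and 6.04 RPKM (1.01, adjusted p = 0.0239) and its chrRNP level rose by 1.11 (adjusted p = 0.00012). The groups did not overlap in these tables, while total RNA of Myc fell. Ptprv, listed as a processed transcript, held the peak chr1:135129220-135130574 and went from 0.327 and 0.316 to 1.04 and 1.39 FPKM (0.74, adjusted p = 0.0212), with 1.73 in chrRNP and 1.02 in np. The 1 noncoding locus lower in chrRNP was Gm26624 (-0.42, adjusted p = 0.0498).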

How the data were processed

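H3K27ac was profiled by chromatin immunoprecipitation and sequencing, and the deposited lists used here hold peak positions on mm10, with no score. Per the submitters' processing notes, the authors used Bowtie2 2.2.6, MACS2 and bedtools. The labels leave unsaid which of the 2 sets of 0 h libraries made the 0 h list, whether replicates were pooled, the input used and the calling threshold. Total and fraction RNA values are FPKM as deposited, which the authors made from ribosomal RNA-depleted libraries with TopHat2 2.0.11 and Cufflinks 2.0.2. Nascent RNA values are RPKM as deposited, made with Trim Galore, TopHat2 2.0.11 and bedtools on mm10 and dm6, per the submitters' processing notes. Spike-in RNA or cells were added to the fraction and nascent samples, per the labels' protocols, but no source used here says whether any table was scaled with them.

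Samples were grouped by assay and time from the labels. Values were analysed as log2(value + 1), for genes that reached 1 in 2 or more libraries of a table, so changes of low genes are understated. All groups of a table entered 1 fit without a replicate term in limma 3.58.1 (trend, moderated; R 4.3.3). P-values were adjusted by Benjamini-Hochberg over all genes of a contrast, with a threshold of 0.05. Peaks were compared with Python 3.11.15, pandas 2.3.3 and numpy 2.4.6, intervals were made with scipy 1.17.1 and figures with matplotlib 3.10.9. An overlap meant 1 base, links reached 100 kb, and peaks up to 10 kb apart were joined. Sequences are RefSeq windows, and 99.9% of the loci matched by symbol overlapped their RefSeq coordinates.

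The fit was tested on simulated data made from each table with 200 changed genes. Changes of 1 and 2 on the log2 scale were recovered for 59% and 91% of them in total RNA at 4 h. The shares were 42% and 72% in nascent RNA at 4 h and 59% and 93% in chrRNP. The changed genes were drawn only from those of higher mean level, so recovery for low genes was not measured. The simulation held no shift of whole libraries. Alternatives were a pseudocount of 0.1, no filter, no trend, rescaled libraries (each divided by its median ratio to the mean of all), the replicate number as a block, and leaving out each library. For peaks they were other distances, a coverage of 50% and a minimum width. Named genes are the 8 with the most peaks, the 6 largest rises and falls called in each RNA comparison with no overlap of libraries and a mean of at least 5 in the higher group, the 4 listed members with the smallest p, the 6 largest rises and falls of noncoding loci, and the widest and the borderline peaks. The text prints part of them. Sesn1, Ier5, Fbxw7, C77080, Cald1, D230017M19Rik, Pvt1, Platr14 and 4930471M09Rik, the 6 printed windows and AY036118 were chosen after their values were seen. The peaks, gene lists and tests were chosen with earlier results of these data known. The 20 h H3K27ac samples and the other tables of the series were not used here.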

Additional observations from a re-analysis of the deposited data

Results flagged for a closer look

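A pair of noncoding loci that hold a distal peak listed at 4 h only changed by different amounts in 2 cell fractions. For Neat1 the log2 change with IAA was 2.71 in chrRNP and 0.65 in np, and the difference was 2.06 (SE 0.27, adjusted p = 0.0167, interaction term in limma over all genes). Both 4 h libraries lay above both 0 h libraries in either fraction. For Ptprv the changes were 1.73 and 1.02, and the difference was 0.70 (SE 0.15, adjusted p = 0.0407). Of the other loci of this kind tested, CT009718.3 had a difference of -1.55 (adjusted p = 0.0657) and 4631405K08Rik one of -0.55, and neither passed. That fit takes the libraries of the fractions as independent. With a replicate block shared by the fractions of a time, an alternative chosen after seeing the data, the adjusted p was 0.0377 for Neat1 and 0.0578 for Ptprv, which then did not pass. Median changes in chrRNP and np were 0.16 and -0.35 for linked coding genes, and 0.44 and 0.50 for noncoding loci holding a peak. Rescaled libraries gave medians of -0.10 and -0.12, and of 0.29 and 0.68. The differences for Neat1 and Ptprv were not recomputed with rescaled libraries.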

How the results depend on the processing

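The number of peaks moved by less than 1.5 times: it was 5317 when overlap meant covering 50% of a peak, 4730 when 1 kb to a 0 h peak was asked, 5264 and 4404 with the distance to gene ends at 1 kb and 5 kb, and 4788 for widths of at least 500 bp. Other rules for linking genes (20 kb, no limit, nearest by either end) moved no count of linked genes called by over 1.5 times.

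Linked genes called depended on scaling and filter, and beyond the fewer samples or more genes of a setting the cause was not tested. With rescaled libraries the counts were 749 higher and 676 lower in total RNA at 20 h, 104 and 61 at 4 h, and 277 lower in chrRNP, with 3 noncoding loci lower there. With no filter they were 5 and 14 in total RNA at 4 h, 2 higher in nascent RNA at 2 h, 14 and 0 in nascent RNA at 4 h, and for noncoding loci 5 higher in total RNA at 4 h and 31 higher in chrRNP. Nascent RNA at 2 h gave 1 higher with no trend and 1 with a pseudocount of 0.1, which gave 11 lower at 4 h and 0 noncoding loci lower in chrRNP. The replicate block gave 26 and 168 in total RNA at 4 h, 1 and 0 in nascent RNA at 4 h, and 0 noncoding loci lower in chrRNP, and moved no other count by over 1.5 times. Deviations of same-numbered samples correlated by -0.03 to 0.15 with 2 pairs, so the numbers were not taken to pair the samples.

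Leaving out 1 library gave 123 to 166 higher and 1469 to 1554 lower at 20 h, 7 to 34 and 3 to 1114 in total RNA at 4 h, 64 to 955 and 7 to 35 in chrRNP, 0 to 0 in nascent RNA at 1 and 2 h, and 1 to 1 higher and 0 to 0 lower at 4 h. The lone library left in such a group is assumed to vary like the other groups. For noncoding loci leaving out 1 library gave 4 to 12 higher and 0 to 5 lower in total RNA at 4 h and 10 to 28 and 0 to 2 in chrRNP.

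Of the values for single genes under an alternative, 817 kept direction and call, 225 lost the call, 12 gained it and 22 changed sign, none of these called. In total RNA at 4 h with rescaled libraries the sign changed for Ajuba (0.0174), Asns (0.0157), Col4a1 (0.0555), Dab2ip (0.194), Ier5 (0.138), Kdm1a (0.0139), Msi2 (0.0984), Nr4a1 (0.265), Tead1 (0.0622) and Zfp64 (0.281), and in chrRNP for Sesn1 (-0.163). With a library left out the log2 change ranged in total RNA from -0.398 to 0.0418 for Col4a1, -0.294 to 0.00698 for Dab2ip, -0.134 to 0.315 for Hspa1a, -0.172 to 0.0217 for Ier5, -0.223 to 0.0595 for Nr4a1 and -0.184 to 0.0183 for Zfp64, and in chrRNP from -0.225 to 0.712 for Gm11657 and -0.0674 to 0.219 for Sesn1. Mdm2, Ddit4 and Lpin1 lost no call in total RNA or chrRNP under these alternatives. The depth of the FPKM tables is unknown.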
